A study of Mus musculus with 4 samples.

Results

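The cells described here are mouse kidney endothelial cells in which the transcripts of Kitl, S100a4 and Cryab, counted together, outnumbered those of 4 other sets of vessel genes. Transcripts were counted as unique molecular identifiers (UMIs), each standing for 1 captured RNA molecule. A cell was first taken as endothelial when Pecam1, Cdh5, Kdr and Tie1 together gave at least 3 UMIs and at least 12 per 10000 of its UMIs. An endothelial cell then joined the class when its sum of Cryab, S100a4 and Kitl was at least 2 and above each of the other sums. Those sums were Igfbp3, Npr3 and Esm1 (peritubular capillary genes), Fbln5, Gja4 and Sema3g (arterial genes), Plat, Pi16 and Ehd3 (glomerular genes) and Ptn, Sema3d and Vcam1 (venous-type genes). The rule kept 624 of 2885 endothelial cells, out of 10535 cells in all. By the same rule 1365 cells fell in the peritubular, 109 in the arterial, 357 in the glomerular and 72 in the venous-type class, and the names of these classes stand for their genes only. The rule's genes came from earlier clusters of these same cells, so the levels of these 19 genes are given as a description and no test was run on them.

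The mice were C57BL/6J animals aged 10 to 14 weeks. One group had angiotensin II-induced hypertension and its control group received saline, while another had salt sensitive hypertension and its control group ate a normal diet. The kidneys of each group were pooled before the cells were released, so each group is 1 library and the spread between animals was not measured. In every group the cells were taken with beads against CD31, the endothelial protein encoded by Pecam1, and then against podoplanin, and were sequenced as single cells. The deposited control table joins 2 libraries without saying which model each belongs to, and they are used together as 1 common control for both models.

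The blood supply of the renal medulla runs through the vasa recta, long straight vessels that descend from the efferent arterioles of deep glomeruli and return as ascending vessels. The descending limb has a continuous endothelium with the urea transporter Slc14a1 and the water channel Aqp1. The ascending limb is fenestrated, and its fenestrae carry the diaphragm protein Plvap. Both lie in tissue that becomes salty and rich in urea, which cells there meet with organic osmolytes and chaperones. Kitl encodes stem cell factor, the ligand of the receptor Kit, S100a4 and S100a6 encode small calcium-binding proteins, Cryab encodes the small heat shock protein alpha B-crystallin, and Ifi27l2a is induced by interferon.

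The control held few of these cells, and this limits every comparison with it. The angiotensin II library held 210 members, the salt-sensitive library 395 and the control libraries 3 and 16. A member had a median of 4989 UMIs with angiotensin II, 2549 with salt-sensitive hypertension, and 1882 and 2747 in the control libraries. Of 7 cell barcodes that libraries share, 0 belonged to members. Doublets were not removed. The summed level of 14 pan-endothelial markers was 14740 UMIs per 1000000 (CPM) in the angiotensin II members, 12328 in the salt-sensitive members and 13460 in the control members, with all 14 detected in each. Macrophage markers summed to between 12 and 20 CPM and fibroblast markers to between 19 and 36 CPM. Mural cell markers summed to between 78 and 120 CPM, the latter from 6 UMIs of control members. Of these markers Notch3 was at 0 in all members, so mural RNA was low but not absent. The lymphatic list summed to between 290 and 401 CPM, carried by Flt4, Nrp2 and Itga9, genes that blood endothelium expresses too. Prox1, which defines lymphatic cells, was at 0 in the control members, which are too few for this 0 to show that lymphatic cells are absent. The Prox1 level of the hypertension members is not given here, so lymphatic cells among them are not excluded. RNA of tubule cells moved with the library. The 24 tubule markers summed to 300 CPM with angiotensin II, to 746 CPM in the salt-sensitive and to 1382 CPM in the control members, and 1 control member held 1.59% tubule UMIs.

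The data do not bear out the name Cryab-positive. A Cryab UMI was present in 82 of the 624 members (13.1%), an S100a4 UMI in 269 (43.1%) and a Kitl UMI in 576 (92.3%). Kitl had the highest count of the 3 genes in 404 members, S100a4 in 168 and Cryab in 28. Kitl was not restricted to the class, since 71.4% of the other endothelial cells of the angiotensin II library and 65.4% of those of the salt-sensitive library had a Kitl UMI too. Outside the endothelial gate the shares were 10.6% and 16.6%. The class is therefore called here by its rule, the Kitl, S100a4 and Cryab class, and its cells are called members.

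Kitl, on chromosome 10 (100015615 to 100100416 in GRCm38.p6), stood at 1183 CPM in the angiotensin II members (exact Poisson 95% interval 1117 to 1253), 1293 in the salt-sensitive members (1228 to 1361) and 1402 in the control members (1093 to 1771). The control interval covers both other values. S100a4, on chromosome 3 (90603770 to 90606045), stood at 595 CPM (548 to 644), 1058 CPM (999 to 1120) and 200.3 CPM (96.0 to 368) in the same order. Only 10 control UMIs in 2 of 19 members lay behind the last value, and 8 of them came from 1 cell. Cryab, on chromosome 9 (50745951 to 50756636), stood at 274 CPM (243 to 308), 117 CPM (98.0 to 139) and 40.1 CPM (4.85 to 145), the last from 2 UMIs of 1 member. The control interval of Cryab overlaps that of the salt-sensitive members. In the venous-type class Cryab stood at 181, 94.1 and 131 CPM in the same order, the last from 2 UMIs. Cells outside the endothelial gate had 43.9, 49.0 and 40.9 CPM, and the peritubular class 2.57, 3.09 and 9.29 CPM. So Cryab was not particular to members, and the control members lay near the level outside the gate. The intervals of these 3 genes cover counting error only. All 3 are in the rule that chose the members, so their levels and intervals are a description and not a comparison of libraries.

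The other markers given for the class, Ifi27l2a and S100a6, are not in the rule. Ifi27l2a, on chromosome 12 (103433873 to 103443680), had 424 CPM with angiotensin II, 736 CPM with salt-sensitive hypertension and 280.4 CPM in the control members, with an interval of 153 to 470.5 in the control. In the peritubular class the same gene had 135, 209 and 107 CPM. Of the 14 control UMIs 10 came from the 3 members of the first control library, and in the second, members had 90.2 CPM against 110 CPM in the peritubular class, so members were not higher there. S100a6, on chromosome 3 (90612894 to 90614414) next to S100a4, had 1506, 2669 and 1722 CPM in members and 659, 955 and 970.3 CPM in the peritubular class.

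Members made up 17.2% of the endothelial cells of the angiotensin II library (210 of 1223, exact 95% interval 15.1 to 19.4%), 26.0% in the salt-sensitive library (395 of 1517, 23.8 to 28.3%) and 13.1% in the control (19 of 145, 8.08 to 19.7%). Each cell was also thinned to 1000 UMIs, which leaves out shallower cells, and the rule was applied again. The shares were then 8.76%, 13.7% and 9.47% of 845, 1040 and 95 cells. The salt-sensitive share lay above the angiotensin II share at both depths, and the control interval (4.42 to 17.2% after thinning) then covered both. The shares rest on Kitl and S100a4. Without Kitl in the rule they were 4.66%, 9.29% and 2.07%, and without S100a4 they were 13.9%, 17.7% and 11.7%. At the bottom of the rule, 41 of the 624 members had a sum of exactly 2 UMIs, 89 had 3, and 125 led the next class by only 1 UMI. Just outside it, 105 endothelial cells tied with another class and 1043 had at least 2 UMIs of the 3 genes but more of another set.

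**Figure D1:**
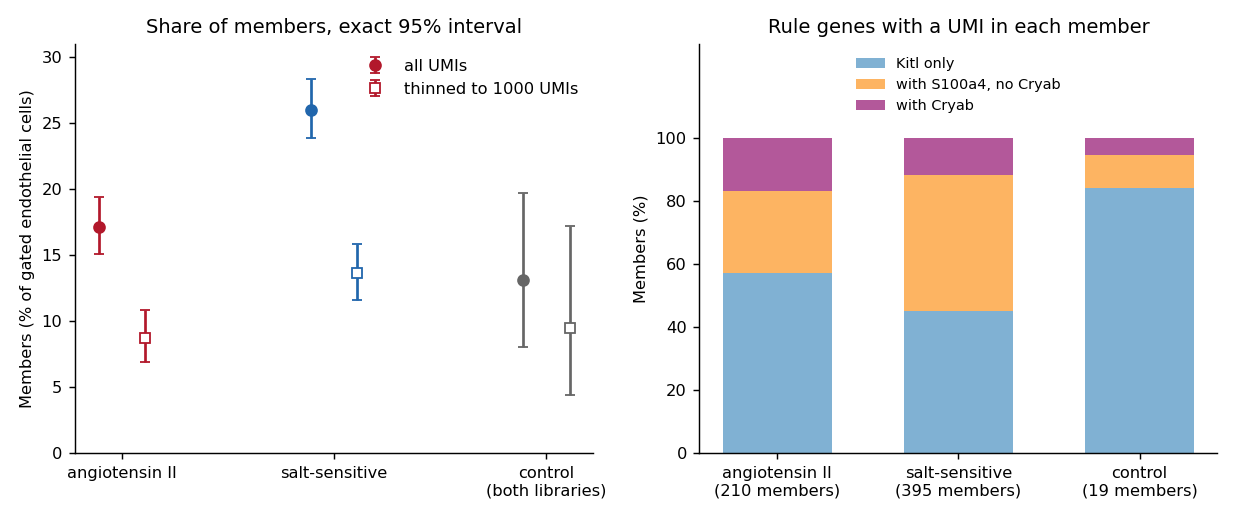
Left, members as a percentage of gated endothelial cells in each library (points, with exact 95% intervals), from all UMIs (filled) and after thinning every cell to 1000 UMIs (open). Right, the percentage of members with a Cryab UMI, with an S100a4 UMI and no Cryab UMI, and with Kitl alone. The salt-sensitive share is the highest of the 3, at 26.0%, and Kitl-only cells are 57.1% of angiotensin II and 45.3% of salt-sensitive members.

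The members were of more than 1 kind. Kitl was the only rule gene with a UMI in 315 of them (50.5%), S100a4 without Cryab was present in 227 (36.4%), and Cryab in 82. Among angiotensin II members 57.1% were Kitl-only and 26.2% had S100a4 without Cryab, against 45.3% and 43.0% among salt-sensitive members. In the control 16 of 19 were Kitl-only. These kinds were chosen on rule genes, so what follows is a description.

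Cells with S100a4 or Cryab held higher levels of several genes that were also high in the arterial class. Tspan8, a tetraspanin membrane protein, stood at 1000 CPM in the Cryab cells, 1009 in the S100a4 cells and 34.5 in the Kitl-only cells of the angiotensin II library, and at 581, 1026 and 121 CPM in the salt-sensitive library. Vim, the intermediate filament protein vimentin, stood at 576, 1626 and 98.2 CPM and at 1010, 1425 and 207 CPM in the same order. Scin, an actin-severing protein, stood at 101.3, 90.4 and 8.62 CPM, and at 82.0, 68.7 and 34.2 CPM. In each of these the Kitl-only cells were the lowest of the 3 kinds in both libraries, and above the peritubular values of 14.3 and 27.1 CPM for Tspan8 and 89.7 and 65.8 CPM for Vim.

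Igfbp5 and Cd36 were higher in Kitl-only cells. Igfbp5, a binding protein of insulin-like growth factors, stood at 1063 CPM in Cryab cells, 1988 in S100a4 cells and 5623 in Kitl-only cells of the angiotensin II library, and at 1060, 618 and 4821 CPM in the salt-sensitive library. The fatty acid transporter Cd36 stood at 228, 230 and 653 CPM and at 56.8, 63.1 and 549 CPM. In the peritubular class Igfbp5 was at 6164 and 7229 CPM and Cd36 at 419 and 447 CPM, and Kitl-only cells lay below the former and above the latter. Some genes varied little among the 3 kinds. The taurine transporter Slc6a6 stood at 1374, 1193 and 1286 CPM in angiotensin II and at 1451, 1635 and 1112 CPM in salt-sensitive members, against 656 and 668 CPM in the peritubular class.

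**Figure D2:**
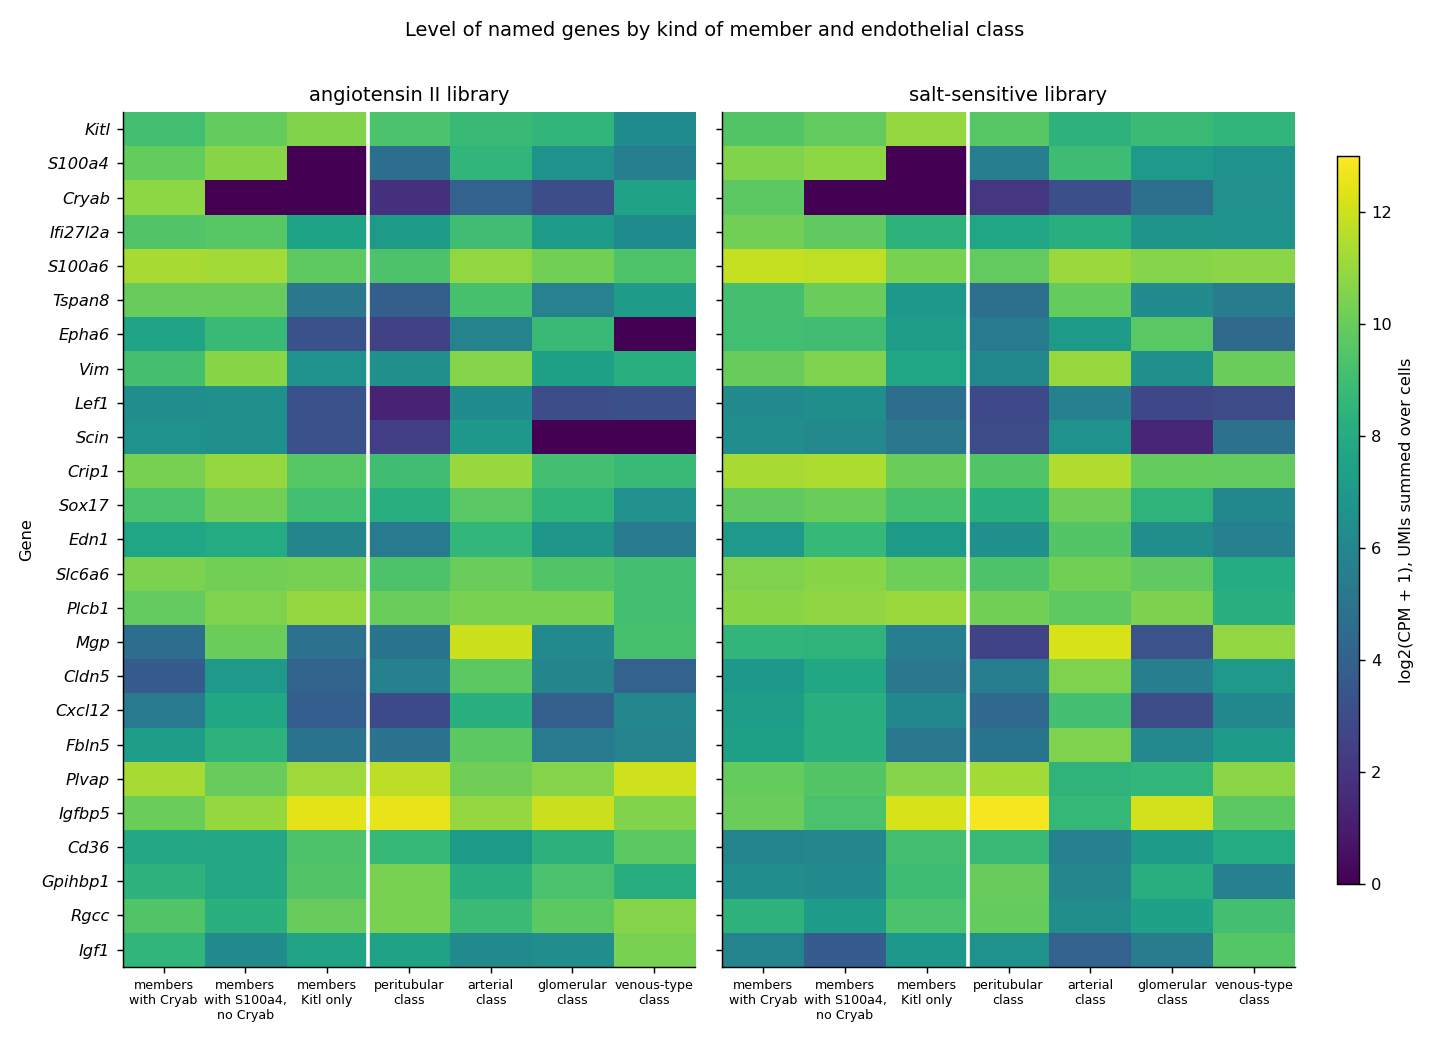
Level of 25 genes as log2(CPM + 1), from UMIs summed over cells, in the 3 kinds of member (left of the white line) and in the other endothelial classes, for the angiotensin II and the salt-sensitive library. Tspan8, Vim and Scin are lower in Kitl-only members than in members with S100a4 or Cryab, and Igfbp5 and Cd36 are higher.

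UMIs of the defining transporters of descending vasa recta were found in few members. Slc14a1 could be read only in the table that joins the hypertension libraries, where 7 of 206 angiotensin II members (3.40%, 95% interval 1.38 to 6.88%) and 5 of 387 salt-sensitive members (1.29%, 0.421 to 2.99%) had a UMI. At most 0.248% of the peritubular cells of that table had one in either library, and 0.518% and 0.622% of the cells outside the gate. Aqp1 had a UMI in 2.38% of angiotensin II and 3.04% of salt-sensitive members, against 2.67% and 3.15% of peritubular cells and 11.9% and 16.9% of cells outside the gate, where the median was 863 and 1005 UMIs. The Aqp1 shares of members lie close to those of peritubular cells and below those of cells outside the gate. Whether the shares of members are background or expression was not tested. After thinning they were 0 of 208, which allows up to 1.44% of cells with a UMI at that depth and sets no limit on cells that express the gene, and 1.02%, and 46.7% of the Aqp1 UMIs of salt-sensitive members came from 1 cell. Scin, also on the descending list, had a UMI in 9.52% and 11.6% of members against 0.801% and 1.11% of peritubular and 4.40% and 6.51% of cells outside the gate. Thinned to 1000 UMIs, the Scin shares of members, 4.33% and 3.84%, were close to the 3.85% and 4.49% outside the gate and above the 0.406% and 1.12% of peritubular cells.

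The ascending and capillary gene Plvap was in most members (88.1% with angiotensin II and 75.9% with salt-sensitive hypertension), against 17.4% and 16.5% outside the gate. Thinned, the shares were 69.7% and 56.0%. Igf1, a growth factor made by some medullary capillaries, had a UMI in 32.9% and 10.6% of members and in 35.5% and 15.6% of peritubular cells. After thinning, Igf1 was in 12.5% and 6.65% of members against 5.77% and 5.28% of cells outside the gate.

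To see what else set members apart, UMIs were summed by class within each library and compared with edgeR's quasi-likelihood test, with the library as a block and Benjamini-Hochberg adjustment over 6565 genes outside the rule. The classes were set from the same cells' counts, so the adjusted p-values order the genes and do not test that the class exists. Against the peritubular class 238 genes (3.63%) were higher and 254 (3.87%) lower at an adjusted p under 0.05, with a median log2 fold change of -0.0046 over all genes. The salt-sensitive library carried much of this: without it 82 genes were higher and 77 lower, and without the angiotensin II library 158 and 170. The kinds of member differed in these genes. Of the 238 higher genes 192 (80.7%) stood higher in members with S100a4 or Cryab than in Kitl-only members, in both hypertension libraries. In 9 of them the Kitl-only members were higher in both. For the 254 lower genes these numbers were 9 and 204 (80.3%), and over all genes fitted the shares were 27.7% and 32.0%.

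Genes of arterial endothelium were higher in members than in peritubular cells, and so was Tspan8. Tspan8 had 444, 614 and 22.6 CPM in the angiotensin II, salt-sensitive and second control library, against 14.3, 27.1 and 0 CPM in the peritubular class, a log2 fold change of 4.76 (SE 0.24, adjusted p 2.0e-14). The last member value rests on 1 UMI. Of 5 arterial markers outside the rule 4 were higher (Sox17, Cxcl12, Clu and Mgp) and 0 lower, with a median of 2.96. Sox17, a transcription factor of arterial identity, had 727, 865 and 316 CPM in members and 279, 299 and 210 CPM in the peritubular class (log2 1.34, SE 0.17, adjusted p 2.4e-06). Members were higher in each of the 3 libraries. Edn1, which encodes the vasoconstrictor endothelin, was higher by 1.62 (SE 0.24, adjusted p 2.0e-05), and Lef1, a transcription factor of the Wnt pathway, by 4.01 (SE 0.44, adjusted p 1.3e-07).

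The descending vasa recta list, of which 8 of 13 genes could be tested, had 5 higher over the peritubular class (Aqp1, Scin, Adipor2, Sox17 and Crip1), 0 lower and a median of 1.03. Of these, Aqp1 (1.65, adjusted p 0.006) rests on the cell named above and lost the call under DESeq2 (adjusted p 0.19). Scin was higher by 3.18 (SE 0.39, adjusted p 7.3e-07) and by 3.19 without the salt-sensitive library, where it lost the call (adjusted p 0.095). Crip1, a small zinc-binding LIM protein, was higher by 1.33 (SE 0.16, adjusted p 4.9e-07), and Adipor2, an adiponectin receptor, by 0.66 (adjusted p 0.048), a call lost without any 1 of the libraries (adjusted p 0.12 to 0.34) and under DESeq2 (adjusted p 0.49). Vim was higher by 3.06 (SE 0.30, adjusted p 2.1e-08). Over the arterial class the descending list had 0 of 8 genes higher and 2 lower (Cldn5 and Crip1), with a median of -0.38. Over the venous-type class it had 2 higher (Sox17 and Crip1) and 1 lower (Aqp1), with a median of 0.21.

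Of 13 osmolyte and osmotic stress genes 3 were higher (Slc6a6, Hspa1b and Aqp1) and 0 lower, with a median of 0.39. For Aqp1 the limits given above apply. Slc6a6, which brings the osmolyte taurine into cells, had 1275, 1408 and 1128 CPM in members and 656, 668 and 616 CPM in the peritubular class, and it was higher in each of the 3 libraries (log2 0.95, SE 0.18, adjusted p 0.00059). Hspa1b, an inducible chaperone nearly identical in sequence to Hspa1a, so that the counts of both are uncertain, was higher by 0.82 (adjusted p 0.0029), and lost the call without the angiotensin II (adjusted p 0.21) or the salt-sensitive library (adjusted p 0.051). It was the only 1 of 15 chaperones that passed, and their median was 0.015.

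Genes of fenestrated peritubular capillaries were lower in members. All 4 testable peritubular markers outside the rule were lower, with a median of -1.04: Plvap, Gpihbp1, Rgcc and Cd300lg. Plvap had 1910, 1092 and 1533 CPM in members against 3327, 2325 and 3110 CPM (log2 -1.03, SE 0.21, adjusted p 0.0013), with members lower in each of the 3 libraries. Gpihbp1, which anchors lipoprotein lipase to capillaries, was lower too (log2 -1.85, SE 0.22, adjusted p 4.0e-07). Among 15 fatty acid genes 4 were lower (Gpihbp1, Apoe, Scarb1 and Cd300lg) and 0 higher. Cd36 itself did not pass, at -0.25 (adjusted p 0.69).

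Of 23 basement membrane and matrix genes 9 were lower and 4 higher, with a median of -0.37. Col4a1 was at -0.74 (SE 0.17, adjusted p 0.0035), Col4a2 at -0.61 and Col15a1 at -0.85. Without the salt-sensitive library Col4a1 (-0.57, adjusted p 0.34) and Col4a2 (-0.33, adjusted p 0.91) lost the call, as did Col18a1 (1.59, adjusted p 0.14), and Col4a2 lost it under DESeq2 (adjusted p 0.14). The higher genes were Eln (elastin, 2.56, SE 0.24, adjusted p 7.2e-09), Fn1 (fibronectin, 3.27), Mgp (matrix Gla protein, 3.61) and Col18a1, a collagen too (1.43). For Mgp, 32.5% of the angiotensin II members' UMIs came from 1 cell, and its call was lost under DESeq2 (adjusted p 0.15). Antigen presentation by MHC class I was lower for 5 of 19 genes (H2-K1, H2-D1, B2m, Psmb9 and Psmb10) and higher for 0, with a median of -0.41. The lowest genes called were Ccn2, a matricellular protein (-3.04, SE 0.36, adjusted p 5.7e-07), Tox (-2.69) and Chst2 (-2.28).

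Against the arterial class, present in the hypertension libraries only, 57 genes (0.868%) were higher and 133 (2.03%) lower, with a median of -0.010. Of the 57 higher genes 43 (75.4%) stood higher in Kitl-only members of both libraries, and 2 in members with S100a4 or Cryab. Of the 133 lower genes 95 (71.4%) stood higher in members with S100a4 or Cryab, and 6 in Kitl-only members. Of 5 arterial markers 3 were lower (Cxcl12, Clu and Mgp) and 0 higher, with a median of -1.80. Mgp had 304 CPM in angiotensin II and 233 in salt-sensitive members and 4121 and 4774 CPM in the arterial class (log2 -4.14, SE 0.44, adjusted p 2.6e-07), and it lost the call under DESeq2 (-4.64, adjusted p 0.15). Cldn5, a tight junction protein, was at -3.84 (SE 0.31, adjusted p 1.2e-09), the phosphodiesterase Pde3a at -4.03 (SE 0.25, adjusted p 9.1e-12) and Acta2, smooth muscle actin, at -4.27 (SE 0.64, adjusted p 8.0e-05). Acta2 marks mural cells, and its 199 CPM in the angiotensin II arterial class stood beside 6.97 CPM in members. Eln was at -2.65 and Bmp4, a growth factor, at -3.33. Of 23 matrix genes 5 were lower and 3 higher with a median of 0.36, and of 13 vasoactive genes 1 was lower (Edn1) and 1 higher (Ednrb) with a median of 0.098.

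Tspan8 (-0.62, adjusted p 0.13), Sox17 (-0.41, adjusted p 0.37), Slc6a6 (0.21, adjusted p 0.78), S100a6 (-0.09, adjusted p 0.92) and Ifi27l2a (0.50, adjusted p 0.52) did not pass against the arterial class. Of 4 peritubular capillary markers 3 were higher in members than in arterial cells (Plvap, Gpihbp1 and Rgcc) and 0 lower, and of 15 fatty acid genes 3 were higher (Cd36, Fabp5 and Gpihbp1) and 0 lower. Plvap was higher by 1.13 (SE 0.26, adjusted p 0.011), Cd36 by 2.01 (SE 0.40, adjusted p 0.0022), Igfbp5 by 1.59 (SE 0.33, adjusted p 0.0031), Fabp5, a fatty acid binding protein, by 2.14 (adjusted p 0.00062) and Gpihbp1 by 1.18 (adjusted p 0.037). DESeq2 lost the calls of Plvap (adjusted p 0.057), Rgcc (adjusted p 0.075) and Gpihbp1 (adjusted p 0.21), and thinned cells those of Plvap (0.92, adjusted p 0.083), Gpihbp1 (1.01, adjusted p 0.33), Cd36 (1.10, adjusted p 0.27) and Fabp5 (0.99, adjusted p 0.27). Vim, at -1.39 (SE 0.29, adjusted p 0.0031), and Edn1, at -1.53, were lower than in the arterial class although higher than in the peritubular class, and both lost the arterial call under DESeq2 (adjusted p 0.20). Of all 6565 genes, 44 were called higher than peritubular and lower than arterial, and 13 lower than peritubular and higher than arterial.

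The highest ratios over the arterial class belonged to genes with few arterial UMIs. Chchd10, a mitochondrial protein, had 235 UMIs in members and 3 in arterial cells, a ratio of 13.7 (exact 95% interval 4.64 to 67.0). It was lower in members than in the peritubular class (log2 -1.32, SE 0.24, adjusted p 0.00037). Ddit4l, an inhibitor of the mTOR pathway, had 79 against 1 (ratio 13.8, 2.41 to 553), and its fitted change turned to -0.25 without S100a4 in the rule. The glomerular class of the angiotensin II, salt-sensitive and second control library had more Ddit4l. It stood there at 115, 167 and 138 CPM, against 35.9, 37.9 and 22.6 CPM in members. Zcchc2 had 95 against 2 UMIs (ratio 8.32, 2.24 to 69.7). Gas7, an actin-binding protein, was higher by 2.67 (SE 0.47, adjusted p 0.00061). The contrast rests on which rule genes are used: without Kitl in the rule 10 genes were higher and 6 lower, and Cd36 (-0.95), Igfbp5 (-1.57), Gpihbp1 (-0.60) and Vim (0.21) changed sign. Without S100a4 270 were higher and 282 lower.

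Against the venous-type class, again from the hypertension libraries only, 191 genes (2.91%) were higher and 261 (3.98%) lower, with a median of 0.00020. The venous transcription factor Nr2f2 had 72.7 and 49.3 CPM in angiotensin II and salt-sensitive members and 614 and 767 CPM in the venous-type class (log2 -3.51, SE 0.25, adjusted p 2.5e-11). All 3 testable venous markers (Nr2f2, Ephb4 and Gas6) were lower. Igf1 was at 192 and 60.7 CPM against 1324 and 767 CPM (log2 -3.08, SE 0.20, adjusted p 8.1e-12). Nlgn1, a synaptic adhesion protein, had 2 UMIs in all members and 53 in the venous-type cells, a ratio of 0.00467 (exact 95% interval 0.000552 to 0.0177). Thsd4 was at -5.51 (SE 0.44, adjusted p 4.5e-10) and Ncam1, neural cell adhesion molecule, at -5.18 (SE 0.76, adjusted p 1.7e-05). Of 12 ascending vasa recta and medullary capillary genes 7 were lower than in the venous-type class and 0 higher, with a median of -0.94.

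Of 5 arterial markers 2 were higher than in the venous-type class (Sox17 and Efnb2) and 1 lower (Mgp, -2.27, not called by DESeq2, adjusted p 0.42), with a median of 1.01. Sox17 was higher by 3.31 (SE 0.30, adjusted p 4.8e-09), Tspan8 by 2.58 (SE 0.32, adjusted p 2.2e-06), Edn1 by 2.17, Slc6a6 by 1.76 (SE 0.24, adjusted p 8.3e-06) and Ifi27l2a by 2.65 (SE 0.39, adjusted p 2.1e-05). Of 36 interferon response genes 10 were higher and 1 lower, with a median of 0.54. Among them were Ifit3 (1.91, SE 0.38, adjusted p 0.00098), Irf7 (2.67, adjusted p 0.00014) and Rsad2 (1.52, adjusted p 0.00083). Against the peritubular class the same list had 1 higher and 2 lower, with 3 of 36 genes above 0 and a median of -0.29. Dlg2, Mctp1 and Cabp1 had 107, 99 and 74 UMIs in members and 0 in venous-type cells, and were at least 4.42-fold, 4.09-fold and 3.06-fold higher when 3 UMIs are allowed for the 0. Leaving Kitl out of the rule turned Igfbp5 to -1.08 and Gpihbp1 to -0.38 here, from 1.55 and 1.28.

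Few genes set members apart from the peritubular, arterial and venous-type classes together: 5 were higher and 2 lower in each of these 3 contrasts. Members were not contrasted with the glomerular class, so these genes may be as high or as low there. Plcb1, a phospholipase of G protein signalling, was higher by 0.87 over the peritubular, 0.78 over the arterial and 2.25 over the venous-type class. Fut8, the core fucosyltransferase, was higher by 0.99, 1.06 and 1.15, and Lrch1 by 0.67, 0.79 and 0.75. All 3 lost calls when Kitl was left out of the rule, where Plcb1 and Fut8 turned to -0.18 and -0.41 over the arterial class. Lrch1 also lost its call over the peritubular class without the angiotensin II (adjusted p 0.18) or the salt-sensitive library (adjusted p 0.070), and Plcb1 and Lrch1 theirs over the arterial class without the second control library (adjusted p 0.071 and 0.051). The 5th gene was an unnamed transcript, 1700025G04Rik.

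Epha6, a receptor of ephrins, had the largest difference of these. It had 148, 385 and 180.4 CPM in members of the angiotensin II, salt-sensitive and second control library, against 4.86, 39.5 and 4.78 CPM in the peritubular class (log2 3.93, SE 0.28, adjusted p 3.3e-11). Over the arterial class it was higher by 1.5 (SE 0.35, adjusted p 0.011), a call lost under DESeq2 (adjusted p 0.11) and turned to -0.58 without S100a4 in the rule. It was not particular to members, since the glomerular class had 454, 812 and 216 CPM. The genes lower than in all 3 classes were Igfbp4 (-0.99, -2.86 and -2.18) and Mgst1, a microsomal glutathione transferase (-0.83, -2.45 and -1.67). Both lost the call over the peritubular class when any 1 library was left out, with adjusted p between 0.0742 and 0.45.

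**Figure D3:**
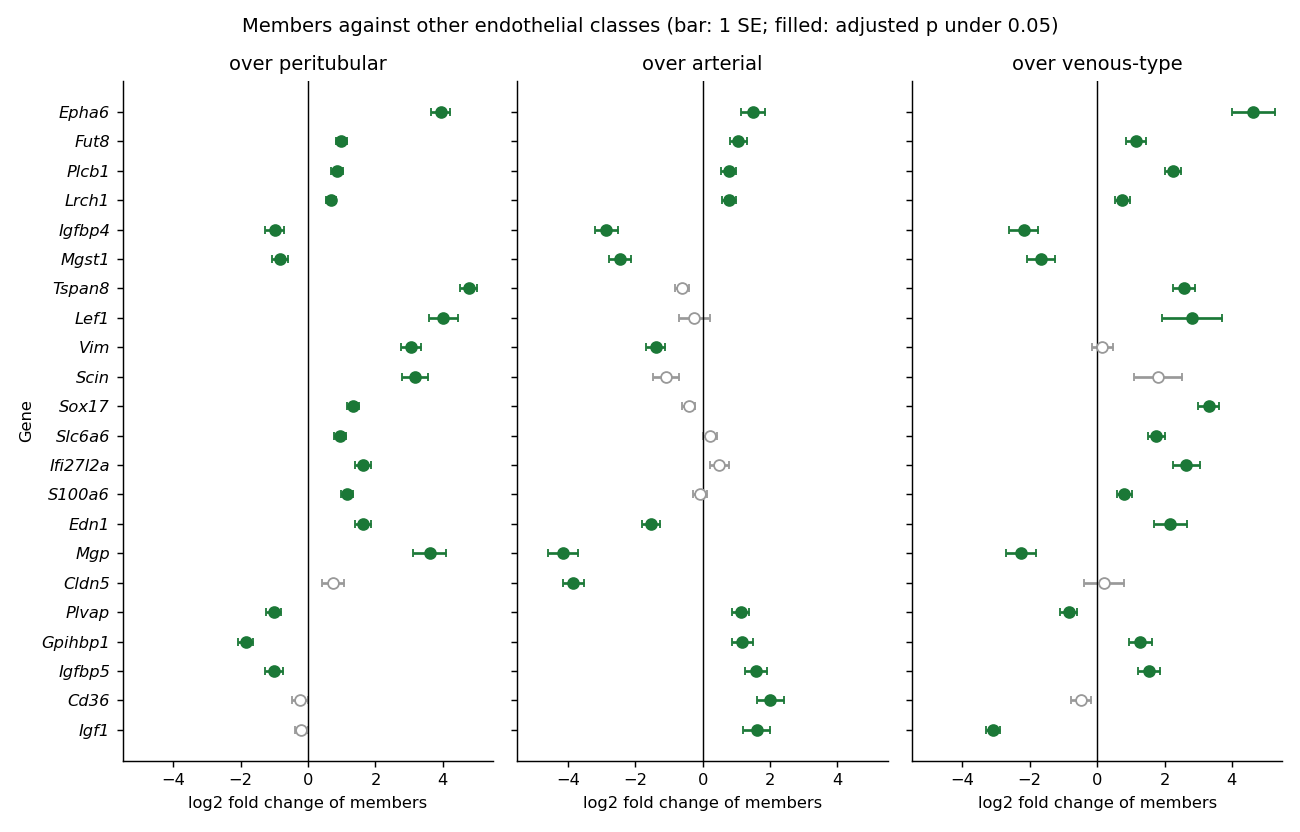
Log2 fold change of members over the peritubular (left), arterial (middle) and venous-type class (right) for 22 genes, from edgeR with the library as a block. Points are estimates, bars are 1 SE and filled points passed an adjusted p of 0.05. Tspan8, Sox17 and Slc6a6 are higher than in the peritubular and venous-type classes and not called against the arterial class, and Igfbp4 and Mgst1 are lower than in all 3.

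The libraries were then compared within the class. Each group was 1 library, so no p-value was computed. UMIs of members were summed, ratios are given as log2 of CPM + 10, so changes of low genes come out too small, and each exact 95% interval is of the plain ratio and covers counting error only. Genes needed an expected 5 UMIs in the smaller library. Both comparisons over control use the same 19 control cells, so their values are not independent of each other.

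Angiotensin II members differed from control members by a log2 ratio of 1 or more in 229 of 2188 genes: 103 (4.71%) were higher and 126 (5.76%) lower, with a median of -0.076. With TMM scaling the median was 0.18, a shift of 0.25, and 223 were higher and 72 lower. Without the second control library, which leaves 3 control cells, the counts were 16 and 17. Salt-sensitive members had 100 of 2200 genes (4.55%) higher and 129 (5.86%) lower, with a median of -0.081. TMM gave a median of 0.14, a shift of 0.22, and 197 higher and 62 lower, and without the second control library the counts were 14 and 17.

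Cyp26b1, which breaks down retinoic acid, was the lowest gene in angiotensin II over control members. It had 54.8 CPM in angiotensin II (exact Poisson 95% interval 41.3 to 71.3), 128 in salt-sensitive (108 to 150) and 661 in control members (455 to 928), the last from 33 UMIs in 6 of 19 cells, all of the second control library. The 3 intervals do not overlap. The log2 ratios were -3.37 (-4.24 to -2.92) and -2.29 (-2.93 to -1.78), and in Kitl-only members -3.22 and -1.83. The peritubular class had the same order, at -2.69 and -1.12, so the difference was not confined to members.

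Cyp7b1, an oxysterol hydroxylase, was lower at 37.9 and 42.3 CPM against 260.4 CPM in control (log2 -2.50, -3.72 to -1.75, and -2.37, -3.53 to -1.61), and Dnmbp, a scaffold of tight junctions, at -2.53 and -2.35. In the peritubular class these were -0.31 and 0.16 for Cyp7b1 and -0.09 and -0.14 for Dnmbp. Nr3c2, the mineralocorticoid receptor, had 135 and 193 CPM against 401 CPM (log2 -1.50, -2.25 to -0.81, and -1.02, -1.72 to -0.32) and -0.11 and 0.54 in the peritubular class. Each control value here rests on 9 to 20 UMIs. Fhit (-2.60) and Ldlrad3 (-2.24) were also among the lowest in angiotensin II members, and Edil3 (-2.65), Map2k6 (-2.14), Ankrd44 (-2.08) and Bgn (-1.99) in salt-sensitive members. The tubule genes Kap (-2.71) and Acsm2 (-2.72), with Esrrg (-2.85), were low in angiotensin II members beside the lower tubule RNA of that library. For Kap 52.6% of control UMIs came from 1 cell, as did 42.9% for Chd9 (-2.07 in salt-sensitive members). The part of tubule RNA in these ratios was not tested.

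All chaperones kept had a ratio above 0 over control members, though not all differed beyond counting error. In the angiotensin II library 3 of 9 were past the log2 ratio of 1 and 4 had an interval above 0, with a median of 0.77. In the salt-sensitive library 6 of 10 were past it and 7 had an interval above 0, with a median of 1.23. The same medians in the peritubular class were -0.0025 and 0.59, and in Kitl-only members 0.81 and 0.88. Hspb1, a small heat shock protein, had 1184 and 1653 CPM against 501 CPM in control (log2 1.23, 0.67 to 1.88, and 1.70, 1.16 to 2.35). In cells thinned to 1000 UMIs, where the rule was applied again and left 9 control members, the former was -0.02. Hsp90ab1 had 1376 and 2180 CPM against 801 CPM (log2 0.77, 0.33 to 1.27, and 1.43, 0.99 to 1.93). Hspa1a had 266 and 321 CPM and 0 control UMIs, at least 4.43-fold and 5.35-fold higher when 3 control UMIs are allowed, while 251 CPM were found in the control peritubular class. Genes that respond to cell dissociation moved with them, at a median of 0.99 (8 of 8 above 0) in angiotensin II and 0.76 (9 of 10 above 0) in salt-sensitive over control members, and at 0.17 and -0.26 in the peritubular class. That list shares Hspa1a, Hspa1b, Hspa8, Hsp90aa1 and Dnajb1 with the chaperones. The part of dissociation was not tested.

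Several of the highest ratios rested on 0 to 4 control UMIs. Mgp had 304 and 233 CPM and 0 control UMIs, at least 5.06-fold and 3.88-fold higher, and it was found mainly in members with S100a4 or Cryab, of which the control had 3. Glul, glutamine synthetase, had 215 and 370 CPM against 1 control UMI, plain ratios of 10.7 (1.91 to 426) and 18.5 (3.30 to 731). Atp1b3, a subunit of the sodium pump, had 280 and 286 CPM against 3 control UMIs, plain ratios of 4.66 (1.58 to 22.7) and 4.76 (1.61 to 23.2). Cav1, the main protein of caveolae, had 304 and 266 CPM against 4 control UMIs, plain ratios of 3.79 (1.47 to 14.0) and 3.32 (1.28 to 12.3). Grasp (5.22, 1.43 to 43.4), Hist1h2bc (5.15, 1.41 to 42.8), Serpinh1, the collagen chaperone (4.28, 1.45 to 20.9), and Cdk17 (4.35, 1.19 to 36.2) led in angiotensin II members. Sorbs2 (5.03, 1.71 to 24.5), Galnt1 (4.81, 1.32 to 40.0) and Tmod3 (4.53, 1.53 to 22.1) led in salt-sensitive members. In the other hypertension library the intervals of Grasp (2.77, 0.751 to 23.1), Sorbs2 (2.54, 0.852 to 12.4) and Galnt1 (2.86, 0.774 to 23.9) covered 1.

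The fatty acid binding protein Fabp5 was higher at 624 and 455 CPM against 200.3 CPM (log2 1.59, 0.75 to 2.71, and 1.15, 0.29 to 2.25), and Fabp4 at 8096 and 6461 CPM against 3846 CPM (1.07, 0.87 to 1.29, and 0.75, 0.54 to 0.96). The peritubular class had 0.58 and 0.76 for Fabp4. Ednrb, the endothelin B receptor, had 359 CPM in angiotensin II and 165 in salt-sensitive against 100.2 CPM in control members, and the interval left out 1 in the former only (1.74, 0.60 to 3.47, and 0.66, -0.53 to 2.36). Tspan8 (1.60 and 2.06) and Vim (1.35 and 1.98) were higher as well. In members of the second control library alone Tspan8 stood at 22.6 CPM. Its joined control level therefore comes mainly from the 3 members of the first control library. The makeup of the class differed beside them, 16 of 19 control members being Kitl-only. Within Kitl-only members Vim was at 1.69 and 2.70 and Tspan8 at 0.41 and 1.97. Those 16 control cells are the only base of these Kitl-only values, whose counting error is not known here. Whether the makeup of the class accounts for the higher Vim and Tspan8 was not tested.

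**Figure D4:**
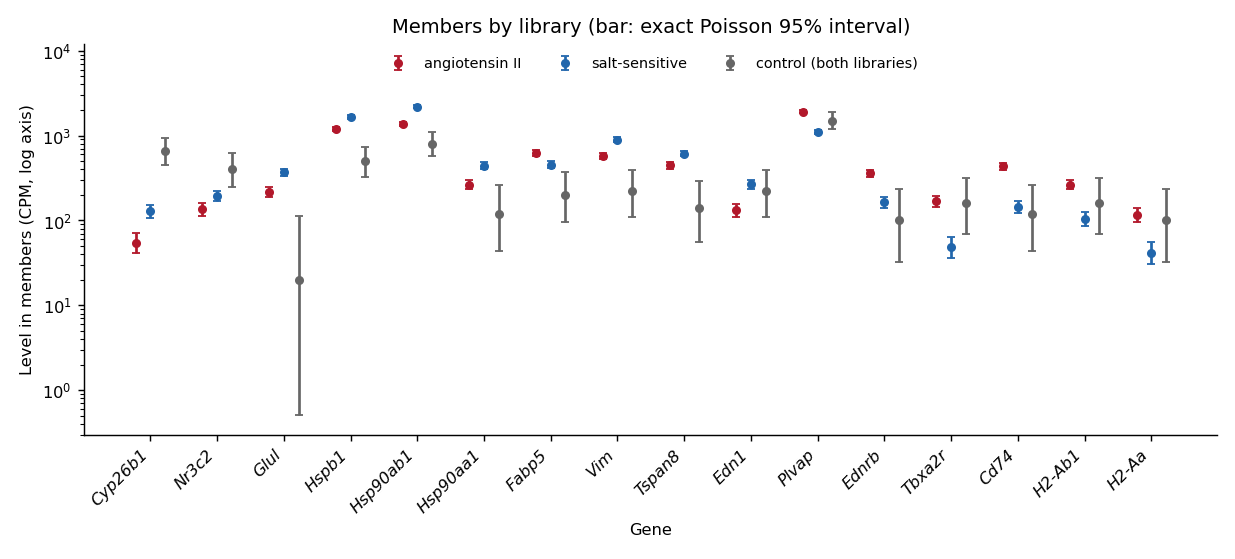
Level of 16 genes in members of the angiotensin II, salt-sensitive and control libraries in CPM (log axis), with exact Poisson 95% intervals. Cyp26b1 is highest in control members at 661 CPM, Hspb1 and Hsp90ab1 are higher in both hypertension libraries, and Cd74, H2-Ab1 and H2-Aa are higher in angiotensin II than in salt-sensitive members.

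The hypertension libraries held enough members to be compared in 9843 genes. Angiotensin II members were higher by the ratio in 57 genes (0.579%) and lower in 176 (1.79%), with a median of -0.014. Genes of antigen presentation lay on the angiotensin II side. All 8 MHC class II genes were above 0 and 4 past the ratio, with a median of 0.91, against 0.58 in the peritubular class and 0.59 in Kitl-only members. Cd74, the invariant chain, had 435 CPM with angiotensin II, 144 CPM in the salt-sensitive and 120 CPM in the control members (log2 1.53 for the first over the second, 1.33 to 1.86). H2-Ab1 had 264 and 105 CPM (1.26, 1.02 to 1.66) and H2-Aa 117 and 41.4 CPM (1.30, 0.99 to 2.01). All 19 MHC class I genes were above 0 as well, 0 past the ratio, with a median of 0.60 against 0.50 in the peritubular class. Counts of single H2 genes are uncertain, since some of their sequences are nearly identical. B2m, the shared light chain, had 3166 and 2091 CPM (0.60, 0.52 to 0.68). Macrophage markers, whose cells also make class II genes, summed to 12 and 15 CPM. Of 36 interferon genes 30 were above 0, with a median of 0.35, while Ifi27l2a went the other way (-0.78, -0.97 to -0.62).

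Of 15 vasoactive genes 3 were past the ratio on the angiotensin II side and 0 on the other, with 8 above 0 and a median of 0.073. Of 12 ascending vasa recta and medullary capillary genes 2 were past it and 1 on the other side, with a median of 0.39. Tbxa2r, the thromboxane receptor, had 167 and 48.4 CPM (1.60, 1.34 to 2.26), Igf1 192 and 60.7 CPM (1.52, 1.26 to 2.08) and Ednrb 359 and 165 CPM (1.08, 0.86 to 1.39). The same ratios in the peritubular class were 0.81, 0.76 and 1.02, and in Kitl-only members 1.10, 0.65 and 0.39. Edn1, whose product binds the endothelin receptors, had 132 CPM in angiotensin II and 266 in salt-sensitive members (-0.96, -1.32 to -0.72), and it was at -1.06 in the peritubular class. Chchd10 (1.64), Slit3, a guidance ligand (1.62), Vwa1 (1.62) and Enpep, the aminopeptidase that cleaves angiotensin II (1.39, 1.08 to 2.32), were the other high genes. Plvap was at 0.80 (0.70 to 0.91) and Igfbp5 at 0.77 (0.70 to 0.85), the latter at -0.06 in thinned cells and 0.22 in Kitl-only members. The fatty acid list had a median of 0.42 in members and 0.06 in Kitl-only members, beside the larger share of Kitl-only cells in the angiotensin II library.

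S100a6 (-0.82, -0.92 to -0.74), Crip1 (-0.79), Vim (-0.63) and Timp3, an inhibitor of matrix proteases (-0.58), were lower in angiotensin II members, and the rule gene S100a4 was at -0.82. In thinned cells, where the rule was applied again and left 74 angiotensin II and 142 salt-sensitive members, Vim turned to 0.81. Of 15 chaperones 12 were below 0, with a median of -0.29 and of -0.57 in the peritubular class. The lowest genes were low in the class and included kidney tubule genes. Hnf1aos1 had 3.98 CPM in angiotensin II and 72.2 in salt-sensitive members (-2.56), Npnt, nephronectin, had 11 and 107 UMIs (-2.31), Slc8a1, the sodium-calcium exchanger, 37.9 and 214 CPM (-2.23), Magi2 46.8 and 246 CPM (-2.17) and the transporter Abcc2 25.9 and 129 CPM (-1.95). Pcdh7 and Lsamp had 1 and 0 UMIs in angiotensin II members and 49 and 42 in salt-sensitive members. For 145 of the 176 lower genes (82.4%) the salt-sensitive level was higher outside the endothelial gate than in members, against 55.8% of all genes. Members of that library also carried more tubule RNA, a median of 0.0607% against 0.0199% of UMIs, and its part in these ratios was not tested. Of the 176 genes 62 (35.2%) were also lower in the peritubular class, which is 54.4% of the 114 lower genes there.

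**Figure D5:**
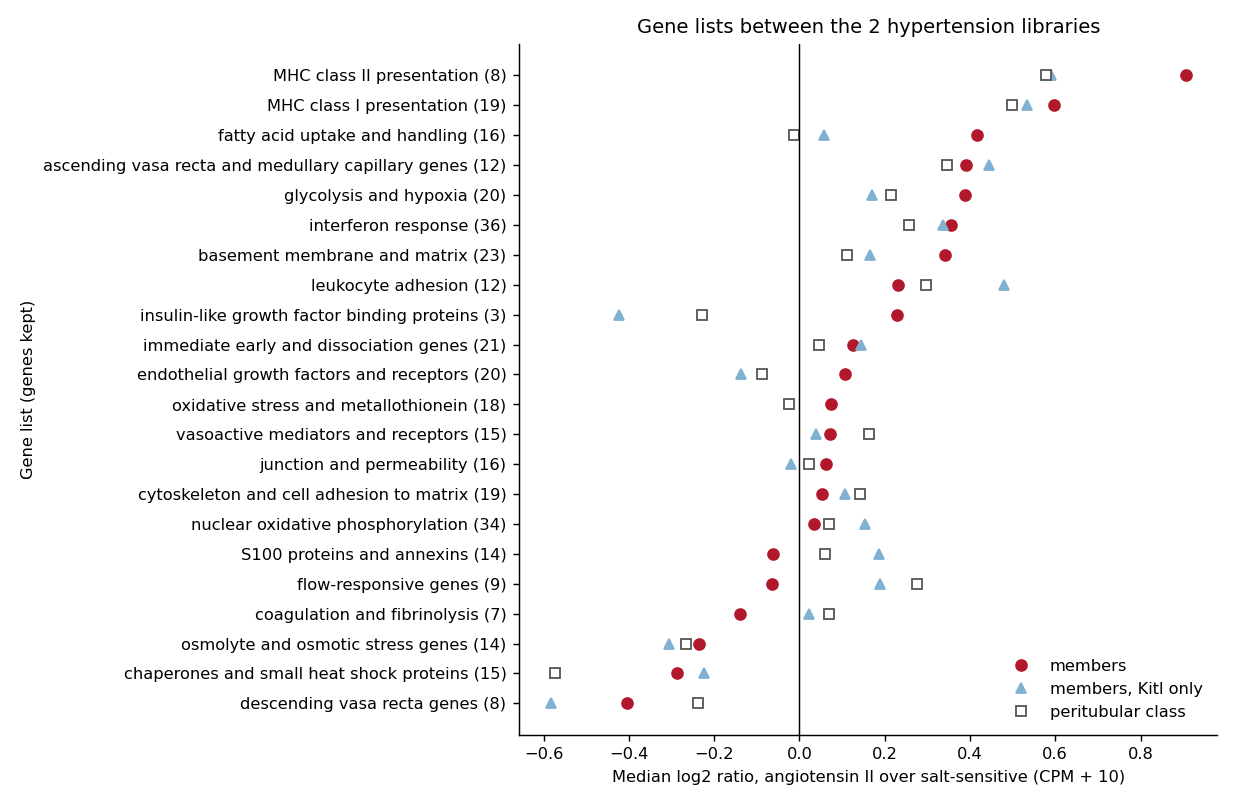
Median log2 ratio (CPM + 10) of angiotensin II over salt-sensitive for 22 gene lists, with the number of genes kept, in all members (circles), in Kitl-only members (triangles) and in the peritubular class (squares). MHC class II genes have the highest median in members, at 0.91, and descending vasa recta genes the lowest, at -0.41.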

How the data were processed

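Single-cell libraries of bead-selected kidney cells gave 4 samples, with 2837 angiotensin II, 3284 salt-sensitive and 2406 and 2008 control cells, medians of 1795, 1785.5, 973 and 557 UMIs per cell and totals of 7479337, 6471741, 2801925 and 1727731 UMIs. The deposited tables hold counts of UMIs per gene and cell, made by the authors, and 0 columns of per-sample values were left unused. Per the submitters' processing notes, the build was mm10 and the tools included Seurat 4.1 and Cell Ranger 7.0.0. Cells in the control table were told apart by their barcode endings. The 11049 genes shared by all tables hold 98.7 to 99.2% of UMIs and were used throughout. The members and the gene lists were chosen with earlier results of these data known. Gene positions are from RefSeq (GRCm38.p6).

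UMIs were summed over cells by class and library, where a class had at least 10 cells, giving 13 sums with 6 residual degrees of freedom. They were fitted with edgeR 4.0.16 (limma 3.58.1, R 4.3.3; filterByExpr, TMM, quasi-likelihood, library as a block), with the threshold at an adjusted p of 0.05. The libraries are pools of animals and enter as a block, so the p-values measure how class differences vary between these pools, which may be technical. The spread is estimated over all 5 classes together, and the arterial and venous-type classes have only 2 sums each. Library ratios used CPM + 10, an expected 5 UMIs in the smaller library and a log2 ratio of 1, with exact 95% intervals, computed in Python 3.11.15 with numpy 2.4.6, scipy 1.17.1 and pandas 2.3.3. UMIs within a cell are not independent, so intervals cover counting error only. The fit was tested on simulated data.

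Named genes are the given markers, the rule genes, those called against all 3 classes, up to 3 of the highest and lowest in each class contrast, up to 8 of the highest and lowest in each library ratio whose interval leaves out 1, and members of the lists; predicted genes and near-identical copies were passed over. DESeq2 1.42.0, other filters, pseudocounts, scalings and rules, thinned cells and each library left out were alternatives. For class shares, fits and ratios in thinned cells the rule was applied again, so the members are a different and smaller set. Shares of members with a UMI after thinning kept the original members. Doublets were not removed.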

Additional observations from a re-analysis of the deposited data

Results flagged for a closer look

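Genes whose ratio to the control members lay on opposite sides of 1 in the hypertension libraries, with both exact 95% intervals clear of 1, are listed here. The control members are shared by both ratios and the difference was not tested. Emcn, which encodes the endothelial sialomucin endomucin, had a log2 ratio of 0.25 (0.01 to 0.52) in angiotensin II and -0.46 (-0.72 to -0.20) in salt-sensitive members. In thinned cells the former turned to -0.57. Plvap had 0.34 (0.01 to 0.70) and -0.46 (-0.80 to -0.10). Timp3 went the other way, with -0.32 (-0.56 to -0.08) and 0.26 (0.03 to 0.50), and turned to 0.73 in thinned angiotensin II cells and to -0.09 in salt-sensitive members without the second control library. Rps29, a ribosomal protein gene, had -0.28 (-0.49 to -0.06) and 0.26 (0.05 to 0.47).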

How the results depend on the processing

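Among the limits are depth, the 19 control members and the genes of the rule. Over the peritubular class DESeq2 gave 146 higher and 121 lower genes, a fit with no library block 92 and 51, cells thinned to 1000 UMIs 62 and 49, and leaving out each library 82 to 227 and 77 to 211. Leaving Kitl out of the rule gave 376 higher, and leaving S100a4 out 160 lower. Over the arterial class DESeq2 gave 25 higher and 79 lower, no block 4 and 42, thinning 12 and 29, no filter on low counts 108 higher, the rule without Kitl 10 and 6 and without S100a4 270 and 282. Over the venous-type class DESeq2 gave 123 higher and no block 68 higher and 151 lower; thinning left too few venous-type cells for a fit. Without Kitl in the rule, changes over the arterial class turned for Cd36 (-0.95), Col18a1 (0.48), Crip1 (0.13), Fut8 (-0.41), Gpihbp1 (-0.60), Igfbp5 (-1.57), Plcb1 (-0.18), Rgcc (-0.024) and Vim (0.21), and over the venous-type class for Gpihbp1 (-0.38) and Igfbp5 (-1.08). Without S100a4 they turned for Ddit4l (-0.25), Epha6 (-0.58) and Nipal2 (-2.18) over the arterial and Vim (-1.27) over the venous-type class. The rules without Kitl or S100a4 in these fits, and the Kitl-only members, were chosen after seeing the data. Of 2542 values of single genes in the class contrasts under an alternative, 2209 kept direction and side of the threshold, 267 lost the call, 51 gained it and 15 turned.

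For angiotensin II over control, 43 genes were higher and 67 lower with 50 CPM added, 7 and 10 with 20 expected UMIs, 223 and 72 with TMM, 16 and 23 in thinned cells, and 16 to 75 and 17 to 121 with a control library left out. For salt-sensitive over control the counts were 51 and 61, 8 and 7, 197 and 62, 17 and 18, and 14 to 87 and 17 to 126. Between the hypertension libraries, 1 CPM added gave 269 higher and 542 lower, 50 CPM 8 and 17, 20 expected UMIs 98 lower, thinning 171 higher, a mean over cells 373 and 605, and Kitl-only members 121 higher. Ratios of angiotensin II over control turned for Emcn (-0.57), Hspb1 (-0.020) and Timp3 (0.73) in thinned cells, for Igfbp5 with TMM (0.054) and in Kitl-only members (0.10), and for Rps29 without control library 2 (0.078, against -0.32 without library 1). Those over salt-sensitive turned in thinned cells for Fabp4 (-0.11), Igfbp5 (-0.065), Sorbs2 (0.17), Tspan8 (0.038) and Vim (0.81), and in Kitl-only members for Fabp4 (-0.095), Fabp5 (-0.17), Hspa1a (0.51) and Mgp (-0.50). Salt-sensitive over control turned without control library 2 for Ifi27l2a (-1.27, against 2.90 without library 1) and Timp3 (-0.088, against 0.31), and in Kitl-only members for Kap (0.34), S100a6 (-0.22) and Timp3 (-0.19). The causes were not tested. Of 1345 such values 1182 stayed within the counting interval, 143 moved and 20 turned.

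Member shares were 13.9% (angiotensin II) and 17.7% (salt-sensitive) without S100a4, 8.76% and 13.7% in thinned cells, and 4.66%, 9.29% and, in control, 2.07% without Kitl. In thinned cells, shares of members with a UMI in the angiotensin II and salt-sensitive libraries were 0% (of 208, which allows up to 1.44% of cells with a UMI) and 1.02% for Aqp1, 29.8% and 15.3% for Cd36, 12.5% and 6.65% for Igf1 and 69.7% and 56.0% for Plvap.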
